A study of Mus musculus with 42 samples.

Results

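The genes described here are a fixed set of 40 mouse genes of the cell cycle and of mitosis, out of 54532 genes in the tables of whole-kidney RNA. They were taken by name, as the rows with the symbols of cyclins, kinases, replication factors, spindle proteins and regulators, and the list was drawn up with earlier results of these data known. All 40 had 1 row each, and all 40 passed the filter on low counts in every fit. The question was how these genes behave in the kidney once Tsc2 is lost, once Tfeb is lost as well, and under Rapamycin.

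RNA was sequenced from 42 kidneys in 14 groups of 3. CaggCreERT2 mice carry a tamoxifen-inducible Cre that acts in the whole body, and all 4 CaggCreERT2 groups were exposed to tamoxifen through lactation and collected at P30 (30 days of age). These were controls (Cre-positive with intact Tsc2), Tsc2 KO (Tsc2 fl/fl), Tfeb KO (Tfeb fl/fl) and DKO, in which Tsc2 and Tfeb were both inactivated. KspCre mice express Cre from the kidney-specific cadherin 16 promoter, so cells outside the kidney epithelium keep both genes, and their controls were Cre-negative. Untreated KspCre controls, Tsc2 KO, Tfeb KO and DKO were collected at P50. A separate KspCre cohort, also at P50, held controls, Tsc2 KO and DKO that had been given vehicle or Rapamycin by 11 intraperitoneal injections, 3 in each week, with a Rapamycin dose of 1 mg/kg according to the sample labels. All mice were kept on a C57BL/6 background, and 1 library stands for 1 kidney sample. The labels do not state that replicates were separate litters, so p-values measure the spread between these samples.

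Cells divide by passing through a phase of DNA synthesis and then mitosis. D-type and E-type cyclins with their kinases release the E2F factors, which switch on genes of DNA replication such as the MCM helicase, PCNA and ribonucleotide reductase. Later the kinase CDK1 with cyclin A and cyclin B, together with the factor FOXM1, drives the genes of the spindle, the kinetochore and cytokinesis, and the anaphase promoting complex with CDC20 ends mitosis. CDKN1A (p21) is an inhibitor of cyclin-dependent kinases and a target of p53. TSC2 restrains mTORC1, a kinase complex that promotes growth, TFEB is a transcription factor of lysosomal genes, and Rapamycin inhibits mTORC1. The adult kidney holds few dividing cells, while the kidney of a young mouse still grows.

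Between 14926050 and 22807605 reads were counted on genes per library. Tsc2 was lower in every library labelled Tsc2 KO or DKO (3.54 to 6.5 FPKM, a level scaled to transcript length and library depth) than in every other library (6.86 to 10.6 FPKM). Tfeb was lower in CaggCreERT2 Tfeb KO and DKO libraries (1.99 to 3.73 FPKM) than in CaggCreERT2 controls and Tsc2 KO (4.57 to 8.33 FPKM), and in untreated KspCre Tfeb KO (4.32 to 5.25 FPKM) it overlapped with Tsc2 KO (3.66 to 6.12 FPKM). In the CaggCreERT2 cohort 4 libraries have other names in the count table than in the FPKM table. For 2 of them the genotype differs too, Tfeb KO in 1 table and DKO in the other. Each library is called here as in the FPKM table, and the Tsc2 ranges above are under these names. Under the other names, 1 library called Tfeb KO lies in the lower Tsc2 range and 1 called DKO in the higher. Xist, an RNA of the inactive X chromosome, was at most 0.0208 FPKM in CaggCreERT2 controls, Tsc2 KO replicate 2 and DKO replicates 1 and 2, and 6.70 to 57.5 FPKM in the other CaggCreERT2 libraries, including all 3 Tfeb KO, so sex differs between these groups. In the KspCre libraries it was 10.4 to 33.0 FPKM. Markers of nephron segments were present, for example a summed 1594 to 1798 FPKM for 5 proximal tubule genes in CaggCreERT2 controls. Untreated KspCre DKO replicate 1 stood apart in immune markers, with a summed 262 FPKM of 6 macrophage genes and 193 FPKM of 5 B and plasma cell genes, against at most 106 and 31.1 FPKM in every library of the other 13 groups. In whole-kidney RNA, a change in the number of dividing cells and a change in RNA per cell cannot be told apart.

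Loss of Tsc2 raised most of these genes in KspCre kidneys and fewer of them in CaggCreERT2 kidneys. In CaggCreERT2 kidneys 17 of 40 members were increased in Tsc2 KO against control at an adjusted p of 0.05 or lower (edgeR quasi-likelihood test, Benjamini-Hochberg adjustment over all 16348 genes tested), and none were decreased, while 15.6% of all genes tested were increased. Leaving out 1 library at a time gave 8 to 31 increased members there. In untreated KspCre kidneys 34 of 40 were increased and none decreased, against 7.64% of all genes. In vehicle-treated KspCre kidneys 37 of 40 were increased and none decreased, against 19.4% of all genes. With a minimum of 5 FPKM in the higher group mean, which leaves out the members of low level, the KspCre counts were 8 and 12. The median log2 fold change of the 40 members was 0.60 in CaggCreERT2, 2.34 in untreated KspCre and 3.09 in vehicle-treated KspCre, and the medians of all genes tested were 0.0018, -0.013 and 0.0091. Of the members, 14 were increased in all 3 comparisons, a count given without its share of all genes. These were Cdk1, Ccnb1, Ccnb2, Cdkn1a, E2f1, Mcm2, Mcm3, Mcm4, Mcm5, Pcna, Rrm1, Rrm2, Bub1 and Bub1b. Without CaggCreERT2 control replicate 2, 5 of the 14 were left, Cdkn1a, E2f1, Mcm2, Mcm3 and Rrm1. Ccnd2 and Tyms were increased in none of them.

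**Figure D1:**
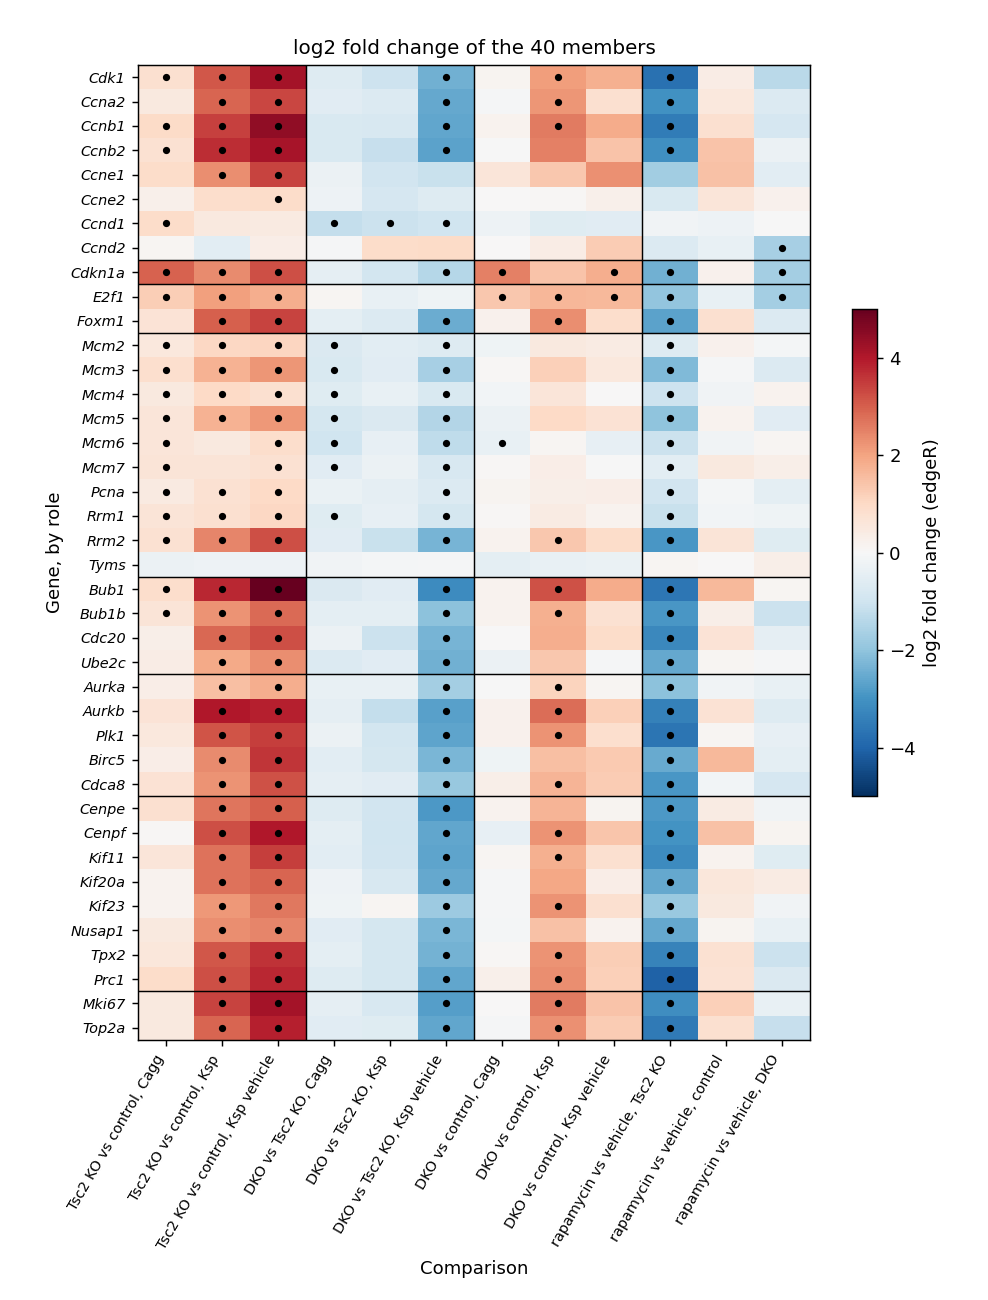
Rows are the 40 genes by role and columns are comparisons, with color for the log2 fold change from edgeR and a dot where the adjusted p is 0.05 or lower. The columns of Tsc2 KO against control hold 17, 34 and 37 dots, and Rapamycin against vehicle holds 35 dots in Tsc2 KO, 0 in control and 3 in DKO.

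Summed over the 24 mitotic members (the kinase and cyclins of mitosis, Foxm1 and the checkpoint, kinase, spindle and chromatin genes), the level was 93.6 ± 15.5 FPKM (SD, n = 3) in CaggCreERT2 controls at P30. It was 9.91 ± 3.96 FPKM in untreated KspCre controls and 9.0 ± 1.46 FPKM in vehicle-treated KspCre controls, both at P50. The cohorts differ in age, mouse line and sequencing table, and the FPKM tables were scaled separately, so these levels are set side by side without a test. In Tsc2 KO the same sum was 129 ± 47.8 FPKM in CaggCreERT2, 67.7 ± 12.4 FPKM in untreated KspCre and 86.9 ± 44.1 FPKM in vehicle-treated KspCre. Within the Tsc2 KO groups the libraries were not alike. CaggCreERT2 Tsc2 KO replicate 3 summed to 74.2 FPKM, below all 3 controls, while the other two libraries were at 156 and 158 FPKM. Vehicle-treated KspCre Tsc2 KO replicate 1 summed to 36 FPKM, above the vehicle controls and below the other two libraries at 110.4 and 114 FPKM.

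**Figure D2:**
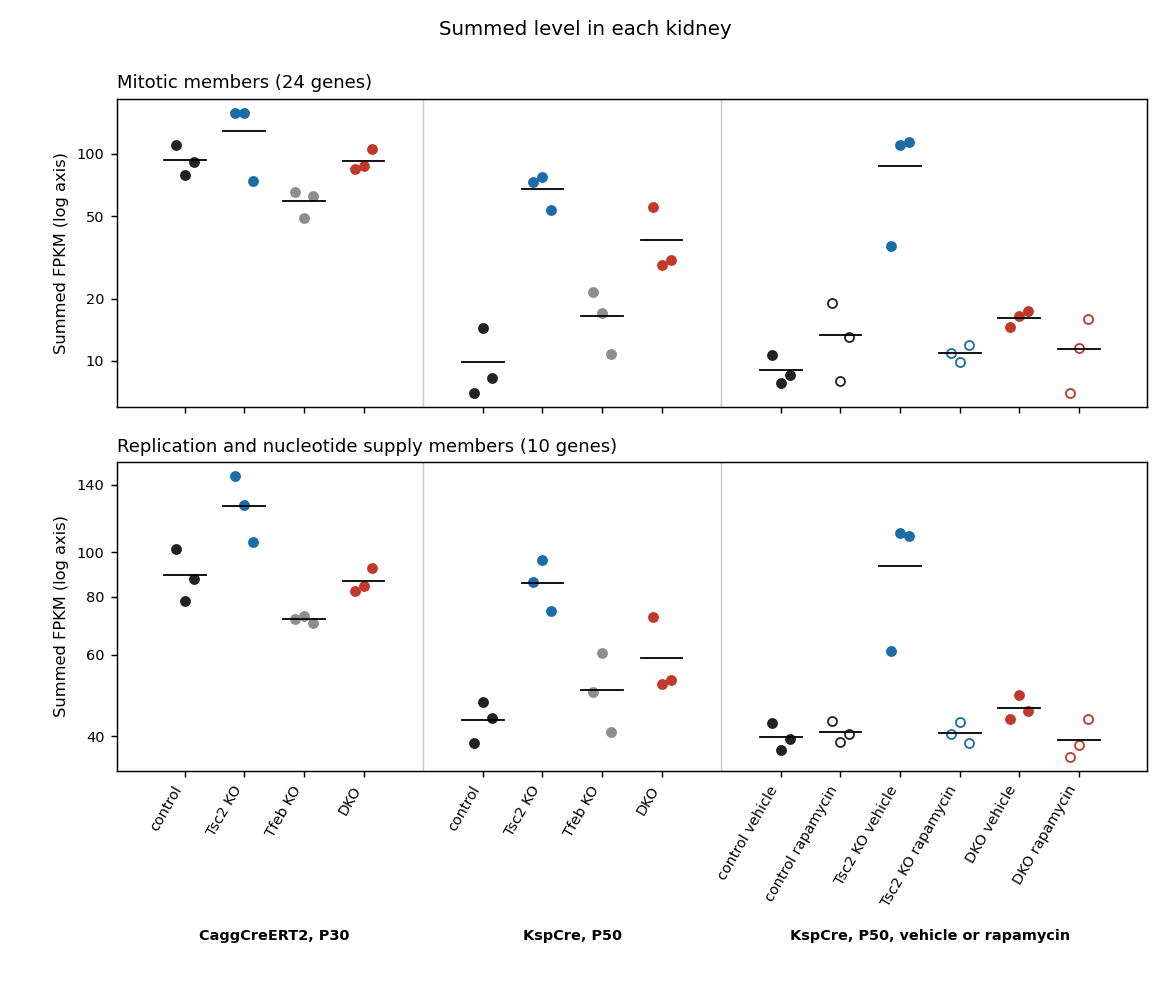
Summed FPKM on a log axis of the 24 mitotic members (top) and the 10 replication and nucleotide supply members (bottom) in each of the 42 kidneys, with 1 point per library, bars at group means and open points for Rapamycin. Vehicle-treated Tsc2 KO kidneys lie at 36 to 114 FPKM for the mitotic members and Rapamycin-treated ones at 9.9 to 11.9 FPKM, within the range of the Rapamycin-treated controls.

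Cdk1 encodes the kinase that starts mitosis. In CaggCreERT2 kidneys it lay at 4.13, 2.93 and 3.11 FPKM in controls, 6.67, 6.24 and 3.81 in Tsc2 KO, 2.39, 1.99 and 2.02 in Tfeb KO and 3.01, 3.36 and 4.47 in DKO. In untreated KspCre kidneys the values were 0.156, 0.601 and 0.214 FPKM in controls, 3.01, 3.39 and 2.02 in Tsc2 KO, 0.832, 0.677 and 0.391 in Tfeb KO and 1.74, 1.16 and 1.24 in DKO. The KspCre Tsc2 KO and DKO libraries lay above all controls, and the Tsc2 KO libraries lay above all DKO libraries. With vehicle, Cdk1 was at 0.266, 0.059 and 0.275 FPKM in controls, 1.58, 4.62 and 4.61 in Tsc2 KO and 0.544, 0.738 and 0.786 in DKO, and with Rapamycin at 0.34, 0.109 and 0.332 in controls, 0.281, 0.312 and 0.216 in Tsc2 KO and 0.137, 0.255 and 0.412 in DKO. Against control, Tsc2 KO raised Cdk1 by 0.78 ± 0.22, adjusted p = 0.0192 in CaggCreERT2, 3.11 ± 0.48, adjusted p = 0.00173 in untreated KspCre and 4.16 ± 0.57, adjusted p = 3.40e-05 in vehicle-treated KspCre (log2 fold change ± SE, edgeR). The CaggCreERT2 call was lost with Xist as a covariate, under the names of the table of counts and without control replicate 2 or 3 or Tsc2 KO replicate 1 or 2. Rapamycin lowered it in Tsc2 KO (-3.73 ± 0.56, adjusted p = 1.28e-04), and the value in DKO did not pass the test (-1.35 ± 0.53, adjusted p = 0.152).

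Ccnb1, the cyclin partner of Cdk1 in mitosis, had 3.36, 2.63 and 2.98 FPKM in CaggCreERT2 controls, 6.3, 7.37 and 2.76 in Tsc2 KO, 1.96, 1.07 and 2.19 in Tfeb KO and 2.87, 3.15 and 3.73 in DKO. Replicate 3 of Tsc2 KO was inside the control range, and the other two were above it. In untreated KspCre kidneys Ccnb1 was at 0.0759, 0.306 and 0.185 FPKM in controls, 1.96, 2.24 and 1.92 in Tsc2 KO, 0.353, 0.234 and 0.127 in Tfeb KO and 1.37, 0.821 and 1.29 in DKO. Vehicle-treated kidneys had 0.137, 0.0966 and 0.19 FPKM in controls, 1.63, 3.28 and 4.35 in Tsc2 KO and 0.514, 0.473 and 0.536 in DKO. Rapamycin-treated kidneys had 0.535, 0.127 and 0.0849 FPKM in controls, 0.276, 0.238 and 0.297 in Tsc2 KO and 0.12, 0.341 and 0.379 in DKO, and these 3 groups overlapped. Tsc2 KO relative to control gave log2 fold changes of 0.94 ± 0.32, adjusted p = 0.0462 in CaggCreERT2, 3.42 ± 0.48, adjusted p = 0.00103 in untreated and 4.44 ± 0.60, adjusted p = 3.01e-05 in vehicle-treated KspCre kidneys (edgeR). The other cyclins of mitosis, Ccna2 and Ccnb2, rose by 2.9 and 3.69 in untreated and by 3.34 and 4.11 in vehicle-treated KspCre kidneys. In CaggCreERT2, Ccnb2 rose (0.75 ± 0.25, adjusted p = 0.0376) and Ccna2 did not pass the test (0.51 ± 0.27, adjusted p = 0.186). The CaggCreERT2 calls of Ccnb1 and Ccnb2 were lost when any library of the compared groups but Tsc2 KO replicate 3 was left out. They were also lost with the replicate block, only the compared groups, Xist as a covariate or the names of the table of counts. Without Tsc2 KO replicate 3, Ccna2 was called in CaggCreERT2.

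Mki67 encodes the Ki-67 protein of the chromosome surface, a common marker of dividing cells. Its level was 5.65, 4.28 and 5.68 FPKM in CaggCreERT2 controls, 8.57, 9.05 and 3.38 in Tsc2 KO, 3.44, 2.8 and 4.98 in Tfeb KO and 4.8, 4.99 and 5.8 in DKO, and the groups overlapped. In untreated KspCre it was 0.216, 0.628 and 0.487 FPKM in controls, 5.42, 5.05 and 3.52 in Tsc2 KO, 1.29, 0.838 and 0.506 in Tfeb KO and 3.75, 1.99 and 2.3 in DKO. Every Tsc2 KO and DKO library lay above every control there. With vehicle it was 0.407, 0.254 and 0.214 FPKM in controls, 2.21, 7.25 and 6.43 in Tsc2 KO and 0.561, 0.813 and 0.964 in DKO. With Rapamycin it was 0.961, 0.306 and 0.768 FPKM in controls, 0.64, 0.538 and 0.642 in Tsc2 KO and 0.224, 0.683 and 0.881 in DKO. Mki67 did not pass the test in CaggCreERT2 Tsc2 KO against control (0.49 ± 0.31, adjusted p = 0.251), and rose 10.4-fold in untreated (3.38 ± 0.43, adjusted p = 6.27e-04) and 18-fold in vehicle-treated KspCre kidneys (4.17 ± 0.54, adjusted p = 2.01e-05, edgeR). The CaggCreERT2 test of Mki67 did pass when Tsc2 KO replicate 3 was left out. Rapamycin in Tsc2 KO lowered Mki67 8.72-fold (-3.12 ± 0.51, adjusted p = 2.71e-04).

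Top2a, the topoisomerase that disentangles sister chromatids, was at 4.71, 3.76 and 4.16 FPKM in CaggCreERT2 controls, 7.3, 6.76 and 2.98 in Tsc2 KO, 2.89, 2.18 and 3.38 in Tfeb KO and 3.66, 3.44 and 4.64 in DKO. Untreated KspCre kidneys had 0.242, 0.672 and 0.284 FPKM in controls, 2.99, 3.37 and 2.68 in Tsc2 KO, 0.805, 0.472 and 0.339 in Tfeb KO and 3.27, 1.32 and 1.24 in DKO. In DKO, replicate 1, the library rich in immune markers, was at the level of Tsc2 KO and the other two were lower. Vehicle-treated kidneys had 0.355, 0.20 and 0.239 FPKM in controls, 1.12, 5.68 and 5.03 in Tsc2 KO and 0.658, 0.664 and 0.615 in DKO, and Rapamycin-treated ones 0.822, 0.152 and 0.42 in controls, 0.339, 0.356 and 0.334 in Tsc2 KO and 0.219, 0.239 and 0.403 in DKO. The change in Tsc2 KO was 2.91 ± 0.49, adjusted p = 0.00278 in untreated and 3.89 ± 0.58, adjusted p = 6.71e-05 in vehicle-treated KspCre kidneys, and 0.50 ± 0.28, adjusted p = 0.195 in CaggCreERT2, where it did not pass the test (log2 fold change ± SE, edgeR). Top2a was called in CaggCreERT2 with no filter on low counts and without Tsc2 KO replicate 3.

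**Figure D3:**
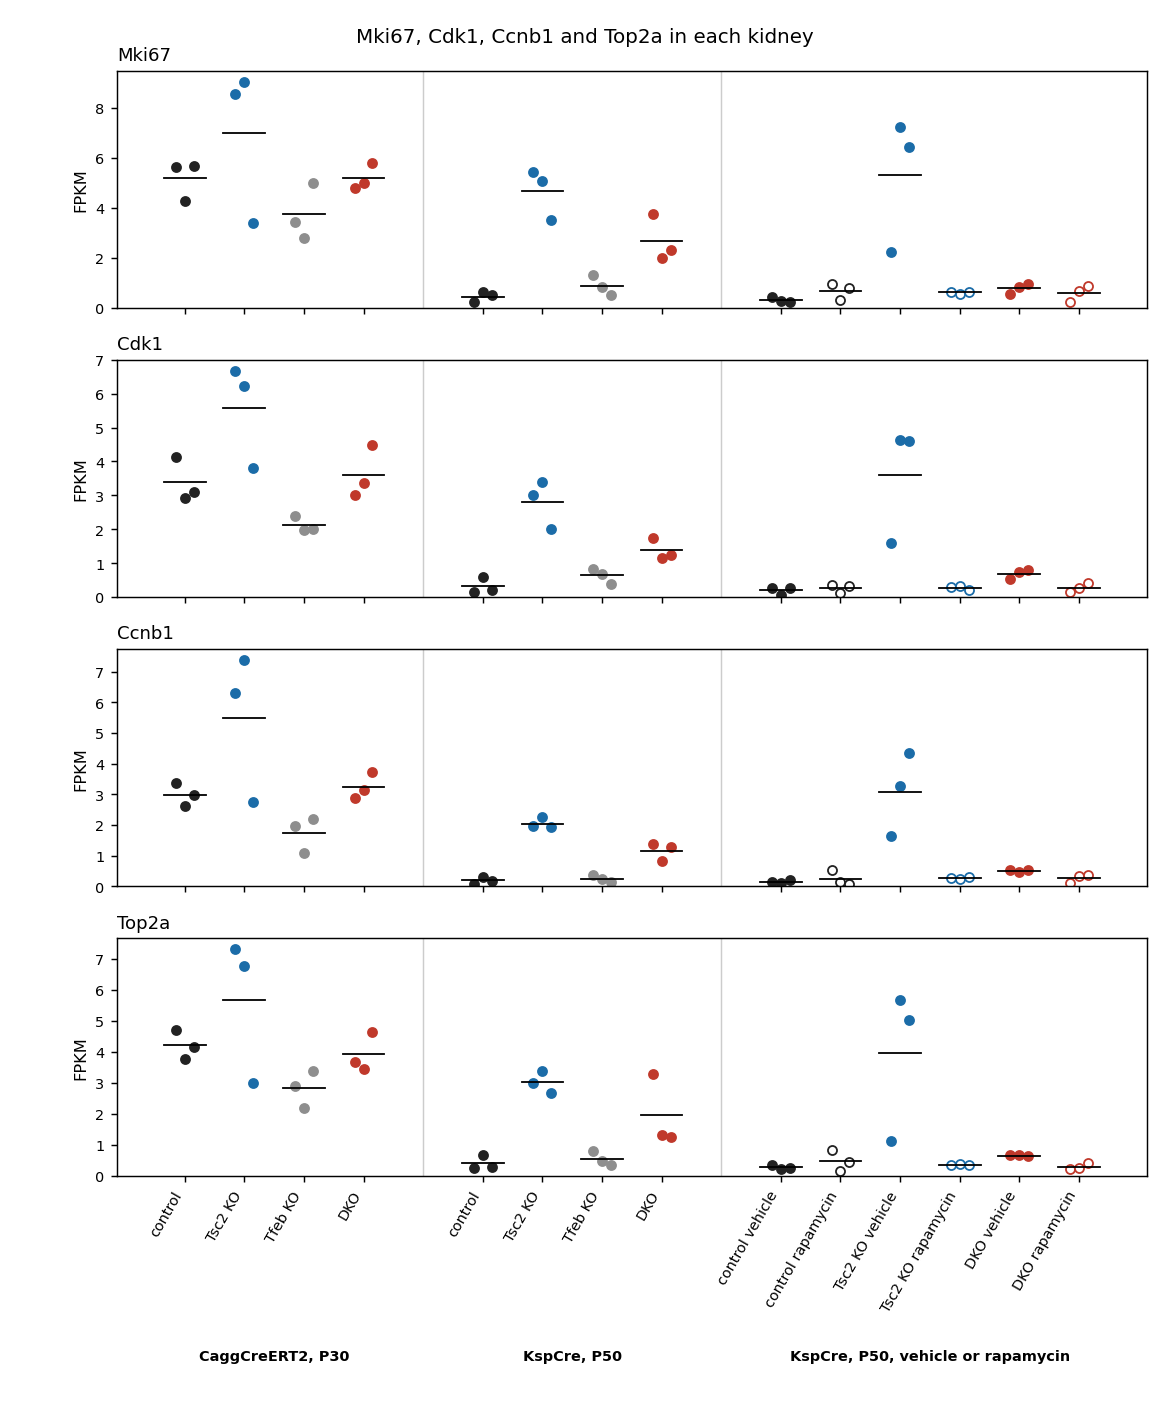
FPKM of Mki67, Cdk1, Ccnb1 and Top2a in each kidney, with 1 point per library in replicate order from left to right, bars at group means and open points for Rapamycin. For Mki67 the vehicle-treated Tsc2 KO kidneys sit at 2.21, 7.25 and 6.43 FPKM and the Rapamycin-treated ones at 0.64, 0.538 and 0.642, while CaggCreERT2 controls are already at 5.65, 4.28 and 5.68.

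Among the mitotic kinases and the chromosomal passenger complex (Aurka, Aurkb, Plk1, Birc5, Cdca8), all 5 were increased in both KspCre comparisons of Tsc2 KO with control. Of all genes, 7.64% were increased there without treatment and 19.4% with vehicle. In CaggCreERT2 none passed the edgeR test with all libraries, Aurkb, Plk1 and Cdca8 did without Tsc2 KO replicate 3, and Aurkb and Cdca8 did with no filter on low counts. The Tsc2 effect differed between CaggCreERT2 and untreated KspCre for Aurkb and Plk1, against 0.998% of all genes. DESeq2 also called Aurka and Birc5 for this difference, and edgeR with no filter Birc5. The Aurkb call was lost with the FPKM minimum. The Plk1 call was lost without control replicate 1 or 3 of either line, or without KspCre Tsc2 KO replicate 1 or 2. Plk1, a kinase of mitotic entry and spindle assembly with the highest mean level of this group, was at 5.33, 3.48 and 4.58 FPKM in CaggCreERT2 controls, 7.98, 7.0 and 3.36 in Tsc2 KO, 2.91, 2.2 and 2.18 in Tfeb KO and 4.75, 4.9 and 5.58 in DKO. In untreated KspCre it was at 0.291, 0.528 and 0.506 FPKM in controls, 3.34, 5.63 and 2.99 in Tsc2 KO, 1.41, 0.829 and 0.609 in Tfeb KO and 3.52, 1.25 and 1.49 in DKO. Every Tsc2 KO and DKO library lay above every control there. With vehicle it was at 0.501, 0.556 and 0.28 FPKM in controls, 2.07, 6.59 and 6.14 in Tsc2 KO and 0.778, 0.749 and 0.882 in DKO, and with Rapamycin at 0.579, 0.178 and 0.698 in controls, 0.278, 0.456 and 0.428 in Tsc2 KO and 0.308, 0.878 and 0.616 in DKO. Plk1 rose by 3.16 ± 0.50, adjusted p = 0.00204 in untreated and 3.46 ± 0.52, adjusted p = 7.93e-05 in vehicle-treated Tsc2 KO (edgeR). Aurkb, the kinase of the passenger complex, had the largest change of all members in untreated KspCre (4.0 ± 0.58, adjusted p = 0.0012), from 0.109, 0.263 and 0.0944 FPKM in controls to 3.36, 2.67 and 1.5 in Tsc2 KO.

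The spindle group holds the kinetochore proteins Cenpe and Cenpf, the motors Kif11, Kif20a and Kif23, and the microtubule proteins Nusap1, Tpx2 and Prc1. All 8 were increased in both KspCre comparisons, beside 7.64% of all genes without treatment and 19.4% with vehicle. In CaggCreERT2 none passed the edgeR test with all libraries, and 5 did (Cenpe, Kif11, Nusap1, Tpx2 and Prc1) without Tsc2 KO replicate 3. With all libraries, DESeq2 called Cenpe and Prc1, and edgeR with no filter on low counts called Cenpe, Tpx2 and Prc1. The Tsc2 effect differed between CaggCreERT2 and untreated KspCre for 2 of the 8, Cenpf and Tpx2, against 0.998% of all genes. DESeq2 and edgeR with no filter on low counts also called Kif11, Kif20a, Kif23, Nusap1 and Prc1 for this difference. Both calls were lost with the FPKM minimum, and that of Tpx2 in most fits that left out 1 library. Tpx2, which activates Aurora A on the spindle, was at 4.24, 3.01 and 2.97 FPKM in CaggCreERT2 controls, 5.85, 5.58 and 3.04 in Tsc2 KO, 2.08, 2.01 and 2.3 in Tfeb KO and 3.41, 3.61 and 3.4 in DKO. Untreated KspCre kidneys had 0.219, 0.551 and 0.202 FPKM in controls, 3.05, 2.77 and 2.6 in Tsc2 KO, 0.674, 0.504 and 0.138 in Tfeb KO and 2.16, 1.21 and 1.19 in DKO. The Tsc2 KO libraries lay close together and above all libraries of the other 3 groups. With vehicle Tpx2 was at 0.37, 0.162 and 0.277 FPKM in controls, 1.23, 4.13 and 4.64 in Tsc2 KO and 0.61, 0.693 and 0.632 in DKO, and with Rapamycin at 0.767, 0.219 and 0.416 in controls, 0.38, 0.314 and 0.295 in Tsc2 KO and 0.133, 0.317 and 0.455 in DKO. It rose by 3.11 ± 0.54, adjusted p = 0.00348 in untreated and 3.62 ± 0.54, adjusted p = 7.73e-05 in vehicle-treated Tsc2 KO (edgeR). Prc1, which bundles the central spindle, fell furthest of all members under Rapamycin in Tsc2 KO (-4.03 ± 0.50, adjusted p = 2.55e-05), from 0.639, 2.53 and 2.26 to 0.0877, 0.114 and 0.13 FPKM. Libraries were prepared without strand information, and 29.3% of the exon bases of Kif20a overlap Cdc23 on the other strand, so reads there cannot be assigned to one gene.

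Of the checkpoint genes, Bub1 and Bub1b, kinases that delay anaphase until chromosomes are attached, were increased in all 3 Tsc2 KO comparisons. In CaggCreERT2 both calls were lost with the FPKM minimum, the replicate block, only the compared groups and the names of the table of counts. They were also lost when any library but control replicate 1 (for Bub1) or Tsc2 KO replicate 3 was left out. The Bub1b call was lost with RLE factors and with Xist as a covariate as well. Bub1 had the largest change in vehicle-treated kidneys (4.97 ± 0.80, adjusted p = 1.45e-04), but its control libraries held only 4, 3 and 2 reads against 36, 165 and 148 in Tsc2 KO, so the fold is imprecise. Cdc20, the activator of the anaphase promoting complex, was at 20.3, 13 and 12.5 FPKM in CaggCreERT2 controls, 20.2, 21.9 and 11.6 in Tsc2 KO, 12.9, 8.23 and 8.84 in Tfeb KO and 13.2, 14.2 and 17.2 in DKO. Untreated KspCre kidneys had 0.514, 1.9 and 1.07 FPKM in controls, 9.52, 9.68 and 6.62 in Tsc2 KO, 2.64, 1.91 and 1.15 in Tfeb KO and 5.68, 3.26 and 3.4 in DKO. In CaggCreERT2 the groups overlapped, while the untreated KspCre Tsc2 KO libraries were above every other library of that cohort. With vehicle Cdc20 was at 1.85, 0.654 and 0.792 FPKM in controls, 4.14, 11.5 and 15.6 in Tsc2 KO and 2.14, 1.82 and 2.35 in DKO, and with Rapamycin at 2.79, 1.33 and 1.18 in controls, 1.49, 0.644 and 1.14 in Tsc2 KO and 1.27, 1.61 and 1.68 in DKO. Cdc20 rose by 2.88 ± 0.46, adjusted p = 0.00198 in untreated and 3.23 ± 0.50, adjusted p = 1.02e-04 in vehicle-treated Tsc2 KO, and Ube2c, the ubiquitin-conjugating enzyme of the same complex, by 1.89 ± 0.45, adjusted p = 0.0169 and 2.34 ± 0.47, adjusted p = 8.77e-04 (edgeR). The untreated KspCre call of Ube2c was lost without control replicate 3 or Tsc2 KO replicate 2, and with the FPKM minimum.

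Foxm1, the transcription factor of many mitotic genes, was at 2.6, 2.0 and 2.5 FPKM in CaggCreERT2 controls, 4.87, 4.38 and 1.74 in Tsc2 KO, 1.74, 1.39 and 1.63 in Tfeb KO and 2.73, 2.42 and 2.94 in DKO. In untreated KspCre it was at 0.189, 0.336 and 0.174 FPKM in controls, 1.95, 2.01 and 1.69 in Tsc2 KO, 0.372, 0.33 and 0.354 in Tfeb KO and 1.4, 0.871 and 1.27 in DKO. The order in untreated KspCre was Tsc2 KO, then DKO, then controls, with no overlap between those 3 groups. With vehicle Foxm1 was at 0.274, 0.303 and 0.268 FPKM in controls, 1.36, 3.76 and 3.7 in Tsc2 KO and 0.486, 0.399 and 0.682 in DKO, and with Rapamycin at 0.714, 0.229 and 0.525 in controls, 0.501, 0.546 and 0.316 in Tsc2 KO and 0.186, 0.312 and 0.471 in DKO. It rose by 3.01 ± 0.30, adjusted p = 2.08e-04 in untreated and 3.38 ± 0.47, adjusted p = 3.57e-05 in vehicle-treated Tsc2 KO and did not pass the test in CaggCreERT2 (0.70 ± 0.29, adjusted p = 0.0933, edgeR). In CaggCreERT2 Foxm1 was called with no filter on low counts and without Tsc2 KO replicate 3.

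Genes of DNA replication and nucleotide supply were counted as 1 group. Of the 10 (Mcm2 to Mcm7, Pcna, Rrm1, Rrm2 and Tyms), 9 were increased in CaggCreERT2 Tsc2 KO, 7 in untreated and 9 in vehicle-treated KspCre Tsc2 KO, with median log2 fold changes of 0.61, 0.90 and 1.02. The shares of all genes increased were 15.6%, 7.64% and 19.4% in the same order. In CaggCreERT2, where sex differs between controls and Tsc2 KO, Mcm3, Mcm6, Mcm7 and Rrm1 kept the call with Xist as a covariate and Mcm2, Mcm4, Mcm5, Pcna and Rrm2 lost it. Without control replicate 2, or without Tsc2 KO replicate 1, the calls of Mcm4, Mcm5, Pcna and Rrm2 were lost. For the 8 spindle genes the medians were 0.52, 2.73 and 3.22. Pcna, the sliding clamp of DNA polymerases, was at 30.8, 23.9 and 27.6 FPKM in CaggCreERT2 controls, 40.6, 35.7 and 31.5 in Tsc2 KO, 25.7, 26.2 and 23.8 in Tfeb KO and 27.8, 29.1 and 31.3 in DKO. Untreated KspCre kidneys had 18, 20.1 and 15.7 FPKM in controls, 30.3, 35 and 26 in Tsc2 KO, 22.3, 29.5 and 16.3 in Tfeb KO and 25.6, 19.9 and 21.1 in DKO. In each cohort the Tsc2 KO libraries lay above all of their controls. With vehicle Pcna was at 17.8, 14.9 and 16 FPKM in controls, 23.5, 36.4 and 36.9 in Tsc2 KO and 20.0, 20.1 and 20.7 in DKO, and with Rapamycin at 16.2, 15.4 and 14 in controls, 15.7, 18 and 16.5 in Tsc2 KO and 13.7, 14.5 and 15.1 in DKO. Tsc2 KO raised Pcna by 0.46 ± 0.11, adjusted p = 0.0107 in CaggCreERT2, 0.76 ± 0.20, adjusted p = 0.0277 in untreated and 0.99 ± 0.14, adjusted p = 4.60e-05 in vehicle-treated KspCre (edgeR). The CaggCreERT2 call of Pcna was lost without control replicate 2 or Tsc2 KO replicate 1 and with Xist as a covariate. The untreated KspCre call was lost without control replicate 1 or 3 or Tsc2 KO replicate 1 or 2.

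The 6 subunits of the MCM helicase, which opens DNA at replication origins, were all increased in CaggCreERT2 Tsc2 KO, with log2 fold changes from 0.48 (Mcm4) to 0.84 (Mcm3), and all 6 in vehicle-treated KspCre Tsc2 KO, from 0.76 (Mcm7) to 2.19 (Mcm3). These 2 comparisons had 15.6% and 19.4% of all genes increased. In CaggCreERT2 the Mcm4 call was lost without any 1 of the controls or without Tsc2 KO replicate 1. The replicate block, only the compared groups and the names of the table of counts ended it too. The Mcm5 call was lost without control replicate 2 or 3 or Tsc2 KO replicate 1 or 2. In untreated KspCre, Mcm2, Mcm3, Mcm4 and Mcm5 were increased, and Mcm6 (0.49 ± 0.22, adjusted p = 0.177) and Mcm7 (0.64 ± 0.25, adjusted p = 0.112) did not pass the test, although their 3 Tsc2 KO libraries lay above all controls. Mcm3 went from 1.29 ± 0.0807 FPKM (SD, n = 3) in vehicle controls to 5.85 ± 1.97 in Tsc2 KO and Mcm5 from 1.11 ± 0.175 to 4.99 ± 2.23, while Mcm7 went from 4.35 ± 0.823 to 7.37 ± 2.05 and Mcm2 from 2.04 ± 0.198 to 4.31 ± 1.5. Rrm2, the subunit of ribonucleotide reductase that is made in S phase, rose by 2.44 ± 0.23, adjusted p = 1.48e-04 in untreated and 3.23 ± 0.29, adjusted p = 4.49e-07 in vehicle-treated KspCre Tsc2 KO, and Rrm1 by 0.81 ± 0.19, adjusted p = 0.0175 and 1.05 ± 0.20, adjusted p = 5.07e-04 (edgeR). The untreated KspCre call of Rrm1 was lost without control replicate 1 or 2 or Tsc2 KO replicate 1 or 2, and with the FPKM minimum. Vehicle-treated libraries of Rrm2 were at 2.33, 1.41 and 1.76 FPKM in controls, 10.3, 20.3 and 21 in Tsc2 KO and 3.52, 2.97 and 3.78 in DKO.

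Tyms, thymidylate synthase, did not pass the edgeR test in any of the comparisons, and was called in CaggCreERT2 DKO against control by DESeq2 and with only the compared groups in the fit. It lay between 1.34 and 4.46 FPKM over all 42 libraries. Comparing Tsc2 KO with control, its log2 fold change was -0.31 ± 0.16, adjusted p = 0.175 in CaggCreERT2, -0.26 ± 0.20, adjusted p = 0.441 in untreated and -0.27 ± 0.23, adjusted p = 0.377 in vehicle-treated KspCre kidneys (edgeR). In CaggCreERT2 all 3 Tsc2 KO libraries (3.63, 3.41 and 2.6 FPKM) lay below all 3 controls (4.07, 3.94 and 4.46 FPKM).

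Ccnd1, cyclin D1 of the G1 phase, was the most abundant member, with a mean of 40.6 FPKM over the 42 libraries. In CaggCreERT2 kidneys it was at 53.5, 51.3 and 51 FPKM in controls, 122, 83.8 and 76.2 in Tsc2 KO, 31.5, 46.3 and 36.6 in Tfeb KO and 47.7, 43.2 and 36.3 in DKO. In untreated KspCre kidneys it was at 39.2, 29.5 and 41.7 FPKM in controls, 42.8, 58.9 and 53 in Tsc2 KO, 21.3, 23.3 and 29.3 in Tfeb KO and 25.2, 22.8 and 24.5 in DKO. In CaggCreERT2 and in untreated KspCre the Tsc2 KO libraries were above all controls and the DKO libraries below all controls. With vehicle Ccnd1 was at 43.9, 27.8 and 35.7 FPKM in controls, 46.1, 52 and 46.9 in Tsc2 KO and 22.2, 21.5 and 28.9 in DKO, and with Rapamycin at 29.6, 38.3 and 23.2 in controls, 38.8, 42.5 and 45.9 in Tsc2 KO and 22.3, 24.4 and 24 in DKO. The increase in Tsc2 KO passed the test in CaggCreERT2 (0.92 ± 0.18, adjusted p = 0.00296) but not in untreated (0.48 ± 0.17, adjusted p = 0.0811) or vehicle-treated KspCre kidneys (0.43 ± 0.18, adjusted p = 0.0652). DESeq2 called it in untreated KspCre, and edgeR called it with vehicle when control replicate 1 was left out. DKO against Tsc2 KO was lower in all 3 cohorts, with log2 fold changes of -1.17 ± 0.19, adjusted p = 0.00325 in CaggCreERT2, -1.09 ± 0.17, adjusted p = 0.0355 in untreated and -1.0 ± 0.18, adjusted p = 9.14e-04 in vehicle-treated KspCre (edgeR). Rapamycin in Tsc2 KO gave -0.19 ± 0.18, adjusted p = 0.468, which did not pass the test. Of the exon bases of Ccnd1, 23.4% overlap a gene on the other strand. Leaving out any library of DKO or Tsc2 KO ended the call of Ccnd1 in untreated KspCre DKO against Tsc2 KO.

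Cdkn1a, the inhibitor p21, had the largest increase of all members in CaggCreERT2 Tsc2 KO. It was at 3.13, 2.66 and 4.74 FPKM in controls, 30.2, 29.8 and 18.7 in Tsc2 KO, 3.25, 2.45 and 2.96 in Tfeb KO and 20.5, 19.7 and 18.4 in DKO. In untreated KspCre kidneys it was at 5.01, 1.52 and 3.56 FPKM in controls, 15.8, 18 and 18.1 in Tsc2 KO, 4.62, 4.4 and 1.78 in Tfeb KO and 7.57, 9.24 and 10.3 in DKO. DKO libraries were above all controls in both lines. With vehicle Cdkn1a was at 2.67, 2.82 and 2.67 FPKM in controls, 25.7, 24 and 26.6 in Tsc2 KO and 9.73, 9.68 and 9.12 in DKO, and with Rapamycin at 3.23, 1.69 and 4.51 in controls, 5.11, 4.19 and 5.04 in Tsc2 KO and 2.22, 3.06 and 3.5 in DKO. Tsc2 KO raised Cdkn1a 7.81-fold in CaggCreERT2 (2.96 ± 0.23, adjusted p = 6.30e-06), 5.14-fold in untreated (2.36 ± 0.40, adjusted p = 0.00281) and 9.35-fold in vehicle-treated KspCre kidneys (3.22 ± 0.25, adjusted p = 1.33e-07, edgeR). Against control, DKO was higher in CaggCreERT2 (2.51 ± 0.23, adjusted p = 3.89e-05) and with vehicle (1.8 ± 0.24, adjusted p = 5.11e-04), and the untreated KspCre value did not pass the test (1.43 ± 0.39, adjusted p = 0.0735). DESeq2 and edgeR with no filter on low counts did call Cdkn1a in untreated KspCre DKO. Rapamycin lowered Cdkn1a in Tsc2 KO (-2.41 ± 0.24, adjusted p = 3.19e-06) and in DKO (-1.69 ± 0.24, adjusted p = 8.16e-04), and the difference between these effects did not pass the test (-0.71 ± 0.33, adjusted p = 0.218).

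E2f1, an activator of replication genes, was at 4.54, 3.35 and 3.79 FPKM in CaggCreERT2 controls, 10.3, 10.9 and 5.17 in Tsc2 KO, 3.39, 3.53 and 4.09 in Tfeb KO and 8.97, 8.86 and 11.1 in DKO. Untreated KspCre kidneys had 0.974, 1.78 and 1.09 FPKM in controls, 5.81, 4.49 and 5.68 in Tsc2 KO, 2.26, 1.25 and 1.26 in Tfeb KO and 3.32, 4.11 and 4.86 in DKO. In both lines the DKO libraries were above all controls and overlapped with Tsc2 KO. With vehicle E2f1 was at 2.15, 0.885 and 1.27 FPKM in controls, 3.03, 4.83 and 7.31 in Tsc2 KO and 4.76, 3.26 and 5.09 in DKO, and with Rapamycin at 1.25, 0.681 and 1.38 in controls, 1.11, 1.42 and 1.33 in Tsc2 KO and 0.966, 1.48 and 1.55 in DKO. E2f1 rose in Tsc2 KO by 1.24 ± 0.24, adjusted p = 0.00243 in CaggCreERT2, 2.05 ± 0.30, adjusted p = 0.00135 in untreated and 1.81 ± 0.37, adjusted p = 9.81e-04 in vehicle-treated KspCre, and the CaggCreERT2 call was lost under the names of the table of counts. Against control, DKO was higher by 1.35 ± 0.24, adjusted p = 0.00413, 1.67 ± 0.30, adjusted p = 0.0172 and 1.6 ± 0.36, adjusted p = 0.017 in the same order (edgeR). The untreated KspCre call was lost without control replicate 1 or 3, and the vehicle call with only the compared groups in the fit or without control replicate 2, control replicate 3 or DKO replicate 3. Both calls were also lost with the FPKM minimum. DKO against Tsc2 KO did not pass the test in any cohort, with 0.11 ± 0.23, adjusted p = 0.818 in CaggCreERT2, -0.38 ± 0.29, adjusted p = 0.65 in untreated and -0.21 ± 0.35, adjusted p = 0.709 in vehicle-treated KspCre. Rapamycin lowered E2f1 in Tsc2 KO (-1.97 ± 0.37, adjusted p = 8.15e-04) and in DKO (-1.71 ± 0.36, adjusted p = 0.0136). The call in DKO was lost without Rapamycin-treated DKO replicate 1 or 2 and with the FPKM minimum.

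**Figure D4:**
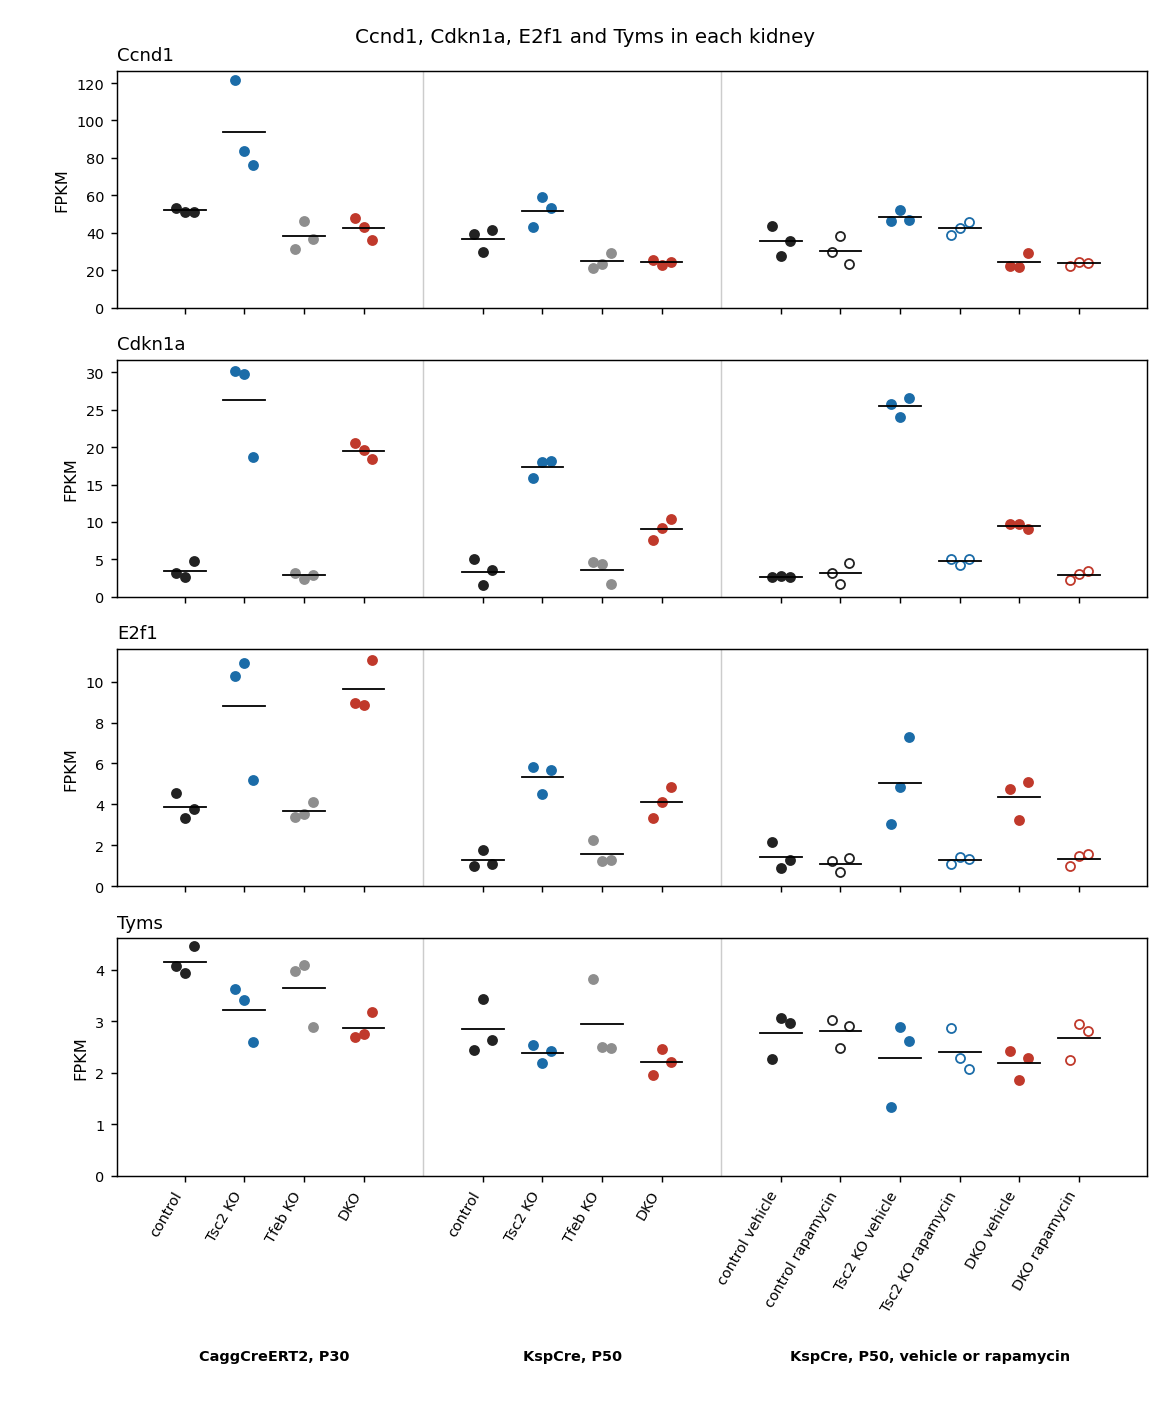
FPKM of Ccnd1, Cdkn1a, E2f1 and Tyms in each kidney, with 1 point per library in replicate order from left to right, bars at group means and open points for Rapamycin. E2f1 in vehicle-treated DKO sits at 3.26 to 5.09 FPKM, above the controls at 0.885 to 2.15, and at 0.966 to 1.55 with Rapamycin, while Ccnd1 in DKO is at 21.5 to 28.9 with vehicle and 22.3 to 24.4 with Rapamycin.

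The remaining G1 and S phase cyclins are given by their tests. Ccne1, an E-type cyclin of S phase entry, rose in untreated (2.31 ± 0.57, adjusted p = 0.0195) and vehicle-treated KspCre Tsc2 KO (3.4 ± 0.83, adjusted p = 0.00423), where the control libraries held 7, 7 and 1 reads. The untreated call was lost without control replicate 2 or Tsc2 KO replicate 1 or 2, and Ccne1 was below the minimum of 5 FPKM. Ccne2, the second E-type cyclin, gave 0.90 ± 0.34, adjusted p = 0.0436 with vehicle and 0.90 ± 0.38, adjusted p = 0.145 without (edgeR). The vehicle call was lost with no filter, with only the compared groups and without control replicates 1 or 2 or Tsc2 KO replicates 2 or 3. Ccnd2, a D-type cyclin, was not increased in any Tsc2 KO comparison. It stood at 2.0, 8.47 and 2.31 FPKM in vehicle-treated DKO, where replicate 2 was the highest of all 42 libraries, and at 1.66, 0.859 and 1.5 with Rapamycin. That drop passed the test (-1.66 ± 0.43, adjusted p = 0.0356), but not when replicate 2 of the vehicle group or any of the Rapamycin-treated DKO libraries was left out.

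Inactivation of Tfeb on top of Tsc2 gave unlike counts of lower members in the 3 cohorts. In vehicle-treated KspCre kidneys 35 of 40 members had lower levels in DKO than in Tsc2 KO and none higher, against 10% of all 17027 genes decreased, with a median log2 fold change of -2.28 (edgeR). The largest was Bub1 (-3.13 ± 0.69, adjusted p = 0.00388) and the smallest of those that passed was Mcm2 (-0.66 ± 0.20, adjusted p = 0.025). The Mcm2 call was lost with only the compared groups, with the FPKM minimum, and without Tsc2 KO replicate 2 or 3 or DKO replicate 1 or 3. Ccne1, Ccne2, E2f1, Tyms and Ccnd2 did not pass. In CaggCreERT2 8 of 40 were lower, against 4.58% of all 16348 genes, with a median of -0.53. These were Ccnd1, the 6 MCM genes and Rrm1, from -1.17 (Ccnd1) to -0.58 (Mcm7). Ccnd1, Mcm2, Mcm5 and Mcm6 kept the call under every alternative. Mcm3 and Rrm1 lost it when any library of these groups but Tsc2 KO replicate 3 was left out. Mcm4 and Mcm7 lost it with Xist as a covariate and in several fits that left out 1 library. The replicate block ended the call of Mcm4, and only the compared groups ended those of Mcm4 and Rrm1. In untreated KspCre 1 of 40, Ccnd1, was lower, against 0.0842% of all 16631 genes, with a median of -0.76. There, 38 of 40 log2 fold changes were below 0 and 13 members had an unadjusted p under 0.05. The effect of Tfeb loss in the absence of Tsc2 differed between vehicle-treated and untreated KspCre kidneys for 1 member, Kif23 (-1.89 ± 0.52, adjusted p = 0.0449). That is no larger a share than the 3.00% of all genes tested in that fit of 30 libraries, which was chosen after seeing the data, and the call was lost with only the compared groups in the fit. Without CaggCreERT2 Tsc2 KO replicate 3, the library whose mitotic members summed below all controls, 28 members were lower in CaggCreERT2 DKO. Leaving out any other library of these groups gave 4 to 6.

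DKO kidneys were also compared with controls. In untreated KspCre mice, of the 40 members 19 were higher in DKO than in control, against 2.27% of all genes, with a median of 1.68. The largest was Bub1 (3.19 ± 0.51, adjusted p = 0.0103) and the smallest Aurka (1.11 ± 0.23, adjusted p = 0.0262, edgeR). Without DKO replicate 1, which is rich in immune markers, 10 members were higher, and leaving out control replicates 1 or 3 left 3 and 6. With only the compared groups in the fit 4 were higher and with the minimum of 5 FPKM 1, and DESeq2 called 30 higher and Ccnd1 lower. In vehicle-treated KspCre 2 members were higher in DKO, Cdkn1a and E2f1, against 3.96% of all genes, although the median was 0.83, and DESeq2 called 9 higher and Ccnd1 lower. In CaggCreERT2 2 members, again Cdkn1a and E2f1, were higher in DKO, against 6.85% of all genes, and 1, Mcm6, was lower (-0.39 ± 0.11, adjusted p = 0.0416), against 3.35% of all genes decreased. The Mcm6 call was lost in each of the 6 fits that left out 1 library, with no filter and with the replicate block. Xist as a covariate and the names of the table of counts ended it too, and those names also ended the calls of Cdkn1a and E2f1. Under those names DKO holds 1 library whose Tsc2 level is in the range of the groups with Tsc2 intact. The median of DKO against control in CaggCreERT2 was 0.04. The difference of the DKO effect between vehicle-treated and untreated KspCre passed the edgeR test for 0 members, against 0% of all genes, with 7 members at an unadjusted p under 0.05 and 0 called by DESeq2. That comparison too was chosen after seeing the data.

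Loss of Tfeb alone was compared with control in each line. In CaggCreERT2 0 of 40 members were called by edgeR, against 0.0184% of all genes. DESeq2 also called 0, and edgeR with no filter on low counts called 2, Ccnb2 and Rrm2. Of the 40, 39 had a log2 fold change below 0, the median was -0.48, and 19 had an unadjusted p under 0.05. Cdk1, for example, gave -0.64 ± 0.23, adjusted p = 0.49 (edgeR). The 3 Tfeb KO mice had Xist at female levels and the 3 controls did not, so genotype and sex cannot be told apart here. In untreated KspCre 0 of 40 were called, against 0% of all genes, with a median of 0.39 and 7 members at an unadjusted p under 0.05, and DESeq2 called 0. The effect of Tfeb loss differed by Tsc2 status for 1 member in CaggCreERT2, Mcm6 (-0.69 ± 0.15, adjusted p = 0.0494), against 1.40% of all genes, and the call was lost with RLE factors, with Xist as a covariate and under the names of the table of counts. Mcm6 was at 10.4, 8.97 and 9.02 FPKM in controls, 7.74, 7.59 and 6.97 in Tfeb KO, 16, 12.6 and 13.2 in Tsc2 KO and 6.75, 7.53 and 6.85 in DKO. In untreated KspCre it differed for 0 members, against 0% of all genes, with 21 at an unadjusted p under 0.05 and 2 called by DESeq2.

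Rapamycin lowered the members in Tsc2 KO kidneys. Against vehicle, 35 of 40 were lower and none higher, against 14% of all 17027 genes decreased, with a median log2 fold change of -2.57 (edgeR). Prc1 fell furthest, and Mcm7 was the smallest that passed (-0.54 ± 0.19, adjusted p = 0.0389). The Mcm7 call was lost with the replicate block and with only the compared groups. Leaving out any library of these groups but vehicle-treated replicate 1 ended it too. The 5 that did not pass were Ccne1, Ccne2, Ccnd1, Ccnd2 and Tyms. Of the 37 members that were increased with vehicle in Tsc2 KO, 34 were decreased both by Rapamycin and in DKO against Tsc2 KO. These comparisons share the vehicle-treated Tsc2 KO libraries, so the counts are not independent. No share of all genes is given for this overlap, so it is not read as particular to the members. In controls Rapamycin lowered 0 members, against 0.0294% of all genes, with a median of 0.40, 5 members at an unadjusted p under 0.05 and 0 called by DESeq2. In DKO it lowered 3, Ccnd2, Cdkn1a and E2f1, against 3.47% of all genes, with a median of -0.47. Rapamycin-treated Tsc2 KO and control kidneys differed in 0 members, against 0.634% of all genes, with a median of -0.18, 2 members at an unadjusted p under 0.05 and 0 called by DESeq2.

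The Rapamycin effect was tested directly between genotypes. In Tsc2 KO it differed from that in controls for 35 members, all toward lower values in Tsc2 KO, against 20.8% of all genes called in either direction. In controls, where none passed, 30 of 40 log2 fold changes were above 0, with Bub1 at 1.61 ± 0.84, adjusted p = 0.474 (edgeR), and these values enter the difference. Bub1 had the largest difference (-5.22 ± 1.1, adjusted p = 0.00352), and Pcna the smallest that passed (-0.85 ± 0.20, adjusted p = 0.00695). Ccne1, Ccnd1, Ccnd2, Mcm4 and Tyms did not pass. Against the Rapamycin effect in DKO it differed for 15 members, all toward lower values in Tsc2 KO, against 6.95% of all genes, from -3.72 (Bub1) to -1.21 (Mcm6). This comparison was chosen after seeing the data. Between 5 and 33 members passed when 1 library was left out, the highest count without vehicle-treated Tsc2 KO replicate 1. E2f1 (-0.27 ± 0.51, adjusted p = 0.82) and Ccnd1 (-0.15 ± 0.25, adjusted p = 0.789) did not pass the test.

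The Tsc2 effect was also compared between mouse lines. It was smaller in CaggCreERT2 at P30 than in untreated KspCre at P50 for 14 members, against 0.998% of all 17442 genes called in either direction (edgeR, 1 fit of 24 libraries). Aurkb had the largest difference (-3.32 ± 0.61, adjusted p = 0.0127) and Rrm2 the smallest that passed (-1.69 ± 0.33, adjusted p = 0.0167). The 14 were Cdk1, Ccna2, Ccnb1, Ccnb2, Foxm1, Rrm2, Bub1, Cdc20, Aurkb, Plk1, Cenpf, Tpx2, Mki67 and Top2a, and no MCM gene was among them. Line, age, tamoxifen and sequencing cohort cannot be told apart in this comparison. Sex by Xist differs between CaggCreERT2 controls and Tsc2 KO and not between the KspCre groups, and its part was not tested here. Leaving out 1 library gave 5 to 18 members, the lowest without CaggCreERT2 control replicate 1 or KspCre control replicate 3. The difference of the Tsc2 effect between vehicle-treated and untreated KspCre kidneys passed the edgeR test for 0 members, against 0.708% of all genes, with 1 at an unadjusted p under 0.05 and 0 called by DESeq2.

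In CaggCreERT2 the count of increased members in Tsc2 KO depended on single libraries. Without Tsc2 KO replicate 3 it was 31, and without Tsc2 KO replicate 1 or control replicate 2 it was 8. With Xist as a covariate it was 8, with only the compared groups in the fit 11, and 9 with libraries named as in the table of counts. Cdkn1a (2.96 ± 0.23, adjusted p = 6.30e-06) was the largest and Pcna (0.46 ± 0.11, adjusted p = 0.0107) the smallest increase that passed. In the KspCre comparisons the smallest increases that passed were Pcna without treatment (0.76 ± 0.20, adjusted p = 0.0277) and Mcm7 with vehicle (0.76 ± 0.19, adjusted p = 0.00456).

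A wider list of 73 other cell cycle genes was counted in the same way. Of the 72 tested, 22 were increased and 5 decreased in CaggCreERT2 Tsc2 KO against control, 42 and 2 in untreated and 49 and 5 in vehicle-treated KspCre. Over all genes tested, 2548 of 16348 were increased and 2194 decreased in CaggCreERT2, 1270 and 1033 of 16631 in untreated, and 3295 and 3226 of 17027 in vehicle-treated KspCre. The median log2 fold changes of the 72 were 0.46, 0.96 and 1.35. The 72 were not the same genes in each cohort. Of the inhibitors of cyclin-dependent kinases, 5 of 6 were tested in CaggCreERT2 and untreated KspCre and 6 of 6 with vehicle. Of the cyclins and regulators that include Cdc25c, 9 of 9 were tested in the first 2 and 8 of 9 with vehicle. In CaggCreERT2 the largest called changes were Eda2r, a p53 target receptor (2.25 ± 0.53, adjusted p = 0.00774), Cdkn2b, an inhibitor of the cyclin D kinases (1.78 ± 0.49, adjusted p = 0.0173), and Cdkn1c, the inhibitor p57, which was lower (-1.57 ± 0.20, adjusted p = 1.40e-04). In untreated KspCre they were Cdc25c, the phosphatase that activates Cdk1, E2f8, a repressor of the E2F family (4.78 ± 0.97, adjusted p = 0.00771), and Ttk, a checkpoint kinase (4.03 ± 0.70, adjusted p = 0.00351). Cdc25c had 0 reads in all 3 controls and 33, 23 and 28 in Tsc2 KO, at least 26.3-fold higher against a floor of 3 reads over the control group. E2f8 had 0, 2 and 3 reads and Ttk 3, 3 and 1 reads in those controls. With vehicle they were the kinetochore gene Ndc80 (4.59 ± 0.59, adjusted p = 1.71e-05), Ttk (4.3 ± 0.86, adjusted p = 9.31e-04) and E2f8 (4.21 ± 0.75, adjusted p = 3.56e-04, edgeR).

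By function, 8 of 9 other spindle and cytokinesis genes and 7 of 9 other kinetochore genes were increased in untreated KspCre Tsc2 KO, against 2 and 1 in CaggCreERT2, where 15.6% of all genes were increased. The direct test of the Tsc2 effect between these lines passed for 3 and 0 of them, beside 0.998% of all genes called in either direction. Of 15 genes of origin firing and the replication fork, 3, 8 and 10 were increased in CaggCreERT2, untreated and vehicle-treated KspCre, beside 15.6%, 7.64% and 19.4% of all genes. Of 10 targets of p53, which induces Cdkn1a, 7, 8 and 7 were increased in the same order, and none decreased. In DKO against control 5, 3 and 4 of these 10 were increased, Ccng1 among them in CaggCreERT2 and with vehicle, where it was not called in Tsc2 KO, beside 6.85%, 2.27% and 3.96% of all genes. Rapamycin lowered 6 of them in Tsc2 KO and 4 in DKO, beside 14% and 3.47% of all genes. Of the spindle and cytokinesis genes 0, 4 and 0 were increased in DKO against control, and Rapamycin lowered 9 of 9 in Tsc2 KO and 0 in DKO, beside the same shares of all genes.

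Markers of other cell types moved with some of the same groups and not with others. In vehicle-treated KspCre Tsc2 KO against control 5 of 6 macrophage genes were increased and 1 decreased, and their summed level was 54.2 to 106 FPKM against 33 to 40.8 in controls and 26.9 to 48.6 in Rapamycin-treated Tsc2 KO. In untreated KspCre Tsc2 KO it was 56 to 93.2 FPKM against 42.8 to 53.1, and 0 of 6 passed. Markers of injured tubule (Havcr1, Lcn2, Krt20, Sox9, Vcam1) summed to 46.3 to 85 FPKM in vehicle-treated Tsc2 KO against 2.29 to 24.7 in controls, with 3 of 5 increased. In untreated KspCre they were at 49.7 to 79.5 FPKM in Tsc2 KO, 4.75 to 46.1 in controls and 7.13 to 152 in DKO, with 2 of 5 increased in Tsc2 KO. In CaggCreERT2 Tsc2 KO they summed to 33.5 to 90.3 FPKM against 5.5 to 10.6, with 5 of 5 increased. In CaggCreERT2 DKO they were at 55.1 to 124 FPKM, where the mitotic members summed to 92 ± 11.4 FPKM, and in KspCre DKO at 31.7 to 50.9 with Rapamycin and 16.4 to 28.8 with vehicle. Proximal tubule markers were lower in vehicle-treated Tsc2 KO, at 356 to 579 FPKM against 1319 to 1609, with 3 of 5 decreased. In CaggCreERT2 Tsc2 KO they were at 411 to 871 FPKM against 1594 to 1798, with 4 of 5 decreased, and in untreated KspCre at 656 to 1289.7 against 1339 to 1592, with 2 of 5 decreased. All 3 podocyte genes were decreased in Tsc2 KO against control in each cohort, with sums of 13.9 to 20.7 against 56.1 to 67.9 FPKM in CaggCreERT2, 10.8 to 13.4 against 28.8 to 42.1 in untreated and 5.1 to 7.38 against 31.9 to 42.2 in vehicle-treated KspCre. They were increased in DKO against Tsc2 KO in CaggCreERT2 and with vehicle, and with Rapamycin in Tsc2 KO. Macrophage genes in CaggCreERT2 summed to 70.9 to 105 FPKM in Tsc2 KO against 55.1 to 66.9 in controls, with 2 of 6 increased. In vehicle-treated Tsc2 KO the lists for fibroblasts, T cells and B and plasma cells had 2 of 4, 0 of 5 and 1 of 5 genes increased. Intercalated cell genes summed to 193 to 234 FPKM in vehicle-treated Tsc2 KO against 69.2 to 99.7 in controls. Of these 3 genes, 1 was increased and 1 decreased. Endothelial genes were at 23.4 to 26.2 against 37.3 to 51.1, and erythroid genes at 13.6 to 79.2 against 183 to 276. In untreated KspCre, intercalated cell genes were at 111 to 192 against 76.3 to 88, with 1 of 3 increased. Endothelial genes were there at 23.6 to 35.7 against 43 to 63, and erythroid genes at 18 to 40.2 against 117 to 455. In CaggCreERT2 all 3 overlapped. Erythroid genes reached a summed 1875 and 1940.3 FPKM in vehicle-treated DKO replicates 1 and 2, against at most 1609 in any other group. The part of these cell types in the member genes was not tested.

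Promoter sequences of the members are shown for mitotic genes, replication genes and a member outside both patterns, so that the letters can be read beside the changes. Windows from 250 bases before to 50 bases after the start (RefSeq, GRCm38.p6) were found for 31 of 40 members and searched on both strands for 3 sets of letters. These were CCAAT, the core of the NF-Y box, TTTGAA, the core of the cell cycle homology region bound by MuvB complexes, and the E2F-type letters TTTCCCGC, TTTGGCGC, TTTCGCGC or TTTGCCGC. CCAAT occurred in 17 of 19 mitotic and 8 of 9 replication members and in 41.1% of all 27025 genes with a window. TTTGAA occurred in 14 of 19 mitotic and 1 of 9 replication members, and in 20.2% of all. The E2F-type letters occurred in 1 of 19 mitotic members (Cdk1) and 4 of 9 replication members (Mcm3, Mcm5, Mcm6 and Mcm7), and in 2.6% of all. A match describes the letters and not a bound site, and no letters found in this window says nothing of a factor. Bub1 and Ccnb1, which rose in KspCre Tsc2 KO, hold no TTTGAA there. Mcm2 and Rrm1, which were lower in CaggCreERT2 DKO than in Tsc2 KO, hold no E2F-type letters. Whether letters and changes go together was not tested.

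The 150 bases upstream of the start are printed in the direction of the gene, with matches to any of the 3 sets in capitals. Cdk1, Cdc20, Ube2c, Top2a and Kif11 rose in KspCre Tsc2 KO and hold TTTGAA or its reverse complement TTCAAA near the start. They lie at chr10:69352913-69353062 (minus strand), chr4:118437344-118437493 (minus strand), chr2:164769779-164769928 (plus strand), chr11:99024190-99024339 (minus strand) and chr19:37376232-37376381 (plus strand).
Cdk1: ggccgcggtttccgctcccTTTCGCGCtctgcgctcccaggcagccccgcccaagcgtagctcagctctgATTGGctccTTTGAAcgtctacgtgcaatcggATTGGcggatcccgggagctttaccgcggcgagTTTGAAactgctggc
Cdc20: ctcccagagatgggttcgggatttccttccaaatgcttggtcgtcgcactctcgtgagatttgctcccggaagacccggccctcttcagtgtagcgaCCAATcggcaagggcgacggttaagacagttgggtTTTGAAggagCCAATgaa
Ube2c: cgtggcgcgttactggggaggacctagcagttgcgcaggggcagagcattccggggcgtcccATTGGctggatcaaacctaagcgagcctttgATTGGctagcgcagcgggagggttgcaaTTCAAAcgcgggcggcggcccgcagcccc
Top2a: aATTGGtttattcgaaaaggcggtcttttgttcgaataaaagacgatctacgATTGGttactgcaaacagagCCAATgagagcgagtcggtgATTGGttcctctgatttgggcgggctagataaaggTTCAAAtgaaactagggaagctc
Kif11: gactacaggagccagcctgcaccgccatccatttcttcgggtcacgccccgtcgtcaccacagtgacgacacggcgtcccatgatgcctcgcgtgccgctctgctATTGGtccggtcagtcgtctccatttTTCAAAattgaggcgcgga

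Mcm5 and Mcm6, of the replication genes that were lower in CaggCreERT2 DKO than in Tsc2 KO, hold E2F-type letters and CCAAT, at chr8:75109359-75109508 (plus strand) and chr1:128359706-128359855 (minus strand).
Mcm5: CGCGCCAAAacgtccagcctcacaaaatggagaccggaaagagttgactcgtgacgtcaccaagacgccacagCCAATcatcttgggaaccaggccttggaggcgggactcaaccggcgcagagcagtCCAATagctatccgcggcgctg
Mcm6: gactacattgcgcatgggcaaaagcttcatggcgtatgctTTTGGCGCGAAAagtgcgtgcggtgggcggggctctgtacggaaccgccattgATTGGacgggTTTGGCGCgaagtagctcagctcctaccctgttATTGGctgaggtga

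Tyms, which edgeR did not call with all groups in the fit, holds none of the 3 sets in the window, at chr5:30073626-30073775 (minus strand). The RefSeq windows of E2f1, Cdca8 and Mcm7 lie inside the genes as the files annotate them, and none of the 3 is shown.
Tyms: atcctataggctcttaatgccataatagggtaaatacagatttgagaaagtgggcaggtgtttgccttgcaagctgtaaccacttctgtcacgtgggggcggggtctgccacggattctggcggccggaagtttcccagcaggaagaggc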

How the data were processed

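Total RNA of 42 mouse kidneys was sequenced as poly-A libraries without strand information. The authors deposited, for each of 3 cohorts, a table of read counts per gene and a table of FPKM values, with gene names. The submitters' processing notes name STAR 2.6.1d, HISAT2 2.0.5, featureCounts 1.5.0-p3, DESeq2 1.20.0 and the build mm10, and do not give the role of each. The deposited counts hold 14926050 to 22807605 reads per library. FPKM tables were used for levels and were scaled separately in each cohort.

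Counts were tested per cohort with edgeR 4.0.16 in R 4.3.3 (filterByExpr, TMM factors, glmQLFit and glmQLFTest), where every group of the cohort entered and Benjamini-Hochberg adjustment ran over all genes tested. Comparisons across cohorts joined their counts in one fit. Calls required an adjusted p of at most 0.05 and no minimum FPKM. A log2 fold change is from this fit, and a fold is the same change on a linear scale. The procedure was tested on simulated data. Alternatives were RLE factors, no filter, an FPKM minimum of 5, DESeq2 1.42.0, a replicate block, only the groups compared, Xist as a covariate, the names of the count table, and leaving out each library.

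The members and lists were chosen with earlier results of these data known. All 40 members were counted. Values of every library are given for 12 genes, the most abundant of each role and a set fixed by name, and in each comparison the called members with the largest and smallest change are named. Of the wider list, the 3 largest called changes in each Tsc2 KO comparison are named. Other genes were named after their values were seen. Promoter windows came from RefSeq (GRCm38.p6).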

Additional observations from a re-analysis of the deposited data

Results flagged for a closer look

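The Rapamycin effect differed between Tsc2 KO and control kidneys for 35 of 40 members in a direct test of the difference (edgeR interaction term), against 20.8% of all genes. The effect of Tfeb loss differed by Tsc2 status for 1 member in CaggCreERT2 kidneys, Mcm6, against 1.40% of all genes, and this call was lost with RLE factors, Xist as a covariate, the names of the count table and most fits that left out a library. The Tsc2 effect differed between CaggCreERT2 and untreated KspCre kidneys for 14 members, against 0.998% of all genes, and for 5 to 18 when 1 library was left out. The Rapamycin effect differed between Tsc2 KO and DKO for 15 members, against 6.95% of all genes, and for 5 to 33 when 1 library was left out. The effect of Tfeb loss without Tsc2 differed between vehicle-treated and untreated KspCre kidneys for 1 member, Kif23, which is no larger a share than the 3.00% of all genes, and this call was lost with the FPKM minimum, only the compared groups and most fits that left out a library. The last 2 comparisons were chosen after seeing the data.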

How the results depend on the processing

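The log2 fold changes recomputed, those of a selection of called and named members, kept their direction under each alternative run. Requiring an FPKM of 5 left 8 members increased in untreated and 12 in vehicle-treated KspCre Tsc2 KO, 12 decreased in vehicle-treated DKO against Tsc2 KO, and 12 decreased by Rapamycin in Tsc2 KO. It left 1 each for DKO against control in untreated and in vehicle-treated KspCre and for Rapamycin in DKO, 11 and 6 for the Rapamycin differences (Tsc2 KO against control, and against DKO), 9 between lines, and 0 for the Tfeb effect between treatments. With no filter on low counts 14 members were lower in CaggCreERT2 DKO against Tsc2 KO, 2 were called in CaggCreERT2 Tfeb KO and 2 in untreated KspCre DKO against Tsc2 KO, 6 were higher in vehicle-treated DKO, 2 were called for the Tfeb difference in CaggCreERT2, and 26 for the Rapamycin difference between Tsc2 KO and DKO. DESeq2 called 2 members in untreated KspCre DKO against Tsc2 KO, 30 as higher in DKO against control untreated and 9 with vehicle (and Ccnd1 besides, as lower, in both), 2 for the Tfeb difference in KspCre, 22 between lines, 30 for the Rapamycin difference between Tsc2 KO and DKO, and 8 for the Tfeb effect between treatments. With only the groups compared in the fit, 11 members were increased in CaggCreERT2 Tsc2 KO, 0 were lower in untreated KspCre DKO against Tsc2 KO, 4 and 1 were higher in DKO against control untreated and with vehicle, and 0 differed in the Tfeb effect between treatments. The Xist covariate left 8 members in CaggCreERT2 Tsc2 KO and 0 for the Tfeb difference, the names of the count table left 9, 0 for DKO against control and 0 for the Tfeb difference, and RLE factors left 0 for the Tfeb difference. The cause of these shifts was not tested, except that the FPKM minimum removes members from the count.

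Leaving out 1 library at a time gave 8 to 31 increased members in CaggCreERT2 Tsc2 KO, 4 to 28 decreased in CaggCreERT2 DKO against Tsc2 KO, 0 in untreated KspCre DKO against Tsc2 KO, 3 to 16 increased in untreated and 1 to 3 in vehicle-treated KspCre DKO against control, and 1 to 3 decreased by Rapamycin in DKO. It gave 0 to 1 for the Tfeb difference in CaggCreERT2, 5 to 18 between lines, 5 to 33 for the Rapamycin difference between Tsc2 KO and DKO and 0 to 5 for the Tfeb effect between treatments. The counts of Tsc2 KO against control in KspCre stayed at 30 to 34 untreated and 35 to 37 with vehicle.

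The replicate block left 12 members increased in CaggCreERT2 Tsc2 KO, 14 higher in untreated KspCre DKO against control, 0 lower in untreated KspCre DKO against Tsc2 KO, 0 for the CaggCreERT2 Tfeb difference and 0 for the Tfeb effect between treatments. Same-numbered samples deviated together (a correlation over 0.1) in 3 of 18, 4 of 18 and 9 of 45 pairs in the CaggCreERT2, untreated KspCre and drug cohorts. Their median correlations were 0.0088, -0.040 and -0.0050, beside 0.0089, -0.0025 and 0.020 for samples of unlike number. The labels give same-numbered samples nothing in common but the number, and a shared litter was not tested. Low counts limit genes such as Bub1 in KspCre controls, and 3 libraries per group limit every comparison.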
